A study of Mus musculus with 34 samples.

Results

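The 39 Hox genes of the mouse were followed in skin of 2 body sites. They were taken as every row of the deposited tables whose symbol was Hoxa, Hoxb, Hoxc or Hoxd followed only by a number, which gave 39 of the 47633 genes in each table, 11 in the Hoxa cluster, 10 in Hoxb, 9 in Hoxc and 9 in Hoxd. The mice were 8 to 10 weeks old, and RNA was sequenced in 34 skin samples, 2 in each of 17 groups. For back skin, with follicles in anagen, the hair growth phase, 18 samples cover 3 genotypes, namely wild type, knockout of Krt17, a keratin of stressed epidermis and hair, and knockout of the tumour suppressor p53. Each was taken unirradiated (0 h) or 6 h or 24 h following a dose of 5 Gy. For footpad, 16 samples cover wild type and the Krt17 knockout, unirradiated (T0) or at time points T3, T6 and T9 following 40 Gy. Those time points carry no unit in the labels. No p53 knockout footpad was included. The labels give neither the knockout alleles, nor the number of animals behind a sample, nor whether fore or hind feet were taken.

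The deposited values are the authors' mean FPKM (fragments scaled to transcript length and to the number of mapped fragments) of the 2 samples of each group, 9 columns for back skin and 8 for footpad. Single samples and read numbers were not analysed here, so differences are given as sizes, with no test and no check between replicates. Ratios are log2 of (mean FPKM + 1) between groups, a scale that understates differences of genes with low FPKM, and a gene was counted at 2-fold or more. The tissues stand in separate tables, differ in dose and times, and cannot be told apart from the table they stand in.

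Hox genes encode homeodomain transcription factors that give cells their position along the body axis. They lie in 4 clusters, and genes at corresponding places in different clusters form numbered paralog groups. Low numbers are expressed towards the head and high numbers towards the tail and the tips of the limbs, in the order in which the genes lie on the chromosome. Adult skin fibroblasts keep such a site-dependent pattern, and some members have a separate role in hair.

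Promoters are shown of genes whose levels did not overlap between the body sites, though others differed more than Hoxd13 and Hoxd8. Each runs from upstream of the RefSeq start site into the transcript, 300 bases in all, 5′ to 3′ on the strand of the gene (RefSeq, GRCm38.p6). Capitals mark TTTAT on either strand, core letters preferred by Hox proteins of the highest paralog groups. Hoxa9 was the highest Hox gene of the footpad, Hoxd13 was listed at 0 in every back skin column, and Hoxb8 and Hoxd8 were higher in back skin.
Hoxa9, chr6:52227321-52227620, minus strand: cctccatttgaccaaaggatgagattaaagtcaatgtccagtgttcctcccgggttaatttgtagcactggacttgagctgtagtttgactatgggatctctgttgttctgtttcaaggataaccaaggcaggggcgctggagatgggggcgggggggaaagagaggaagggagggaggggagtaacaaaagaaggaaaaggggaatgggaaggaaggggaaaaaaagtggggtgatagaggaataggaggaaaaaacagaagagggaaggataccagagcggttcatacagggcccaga
Hoxd13, chr2:74667975-74668274, plus strand: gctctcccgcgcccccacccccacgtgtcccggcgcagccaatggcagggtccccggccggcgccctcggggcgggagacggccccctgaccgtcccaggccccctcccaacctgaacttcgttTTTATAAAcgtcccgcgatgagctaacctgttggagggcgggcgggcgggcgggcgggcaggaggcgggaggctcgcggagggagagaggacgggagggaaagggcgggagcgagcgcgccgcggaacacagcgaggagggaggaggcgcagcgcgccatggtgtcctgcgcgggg
Hoxb8, chr11:96281655-96281954, plus strand: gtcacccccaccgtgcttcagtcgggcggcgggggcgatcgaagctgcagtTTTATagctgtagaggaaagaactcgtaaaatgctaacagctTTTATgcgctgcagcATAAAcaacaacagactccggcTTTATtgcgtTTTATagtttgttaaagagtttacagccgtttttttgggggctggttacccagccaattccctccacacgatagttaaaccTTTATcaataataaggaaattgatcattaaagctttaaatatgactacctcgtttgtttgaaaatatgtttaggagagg
Hoxd8, chr2:74704365-74704664, plus strand: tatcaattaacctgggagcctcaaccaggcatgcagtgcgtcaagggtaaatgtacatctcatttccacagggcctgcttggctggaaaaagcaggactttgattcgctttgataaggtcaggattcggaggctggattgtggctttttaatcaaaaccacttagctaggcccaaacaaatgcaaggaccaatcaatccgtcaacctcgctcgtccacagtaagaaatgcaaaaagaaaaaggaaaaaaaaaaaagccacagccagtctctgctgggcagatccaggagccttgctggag
The Hoxb8 window held 6 matches to TTTAT and the Hoxd13 window 2, which overlap on opposite strands, while the Hoxa9 and Hoxd8 windows held 0. Of 32851 mouse promoters of this length, 13143 held at least 1 match, as did 9 of the 24 promoter windows listed for 22 of the Hox genes. The Hoxd13 window had 37 CpG pairs and the Hoxa9 window 4, against a median of 7 over all promoters. The Hoxa9 window lies inside the annotated gene (52223100 to 52231089) and not at its outer start, so its CpG pairs do not describe that start. A match describes letters in the window and not a bound site.

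Markers separated the tissues as labelled. Krt9, a keratin of palm and sole epidermis, lay between 158 and 697 FPKM in the footpad columns and between 0.0386 and 1.29 in back skin. The 6 measured markers of hair matrix and shaft summed to between 5313 and 10682 FPKM in back skin and to between 6.69 and 46.9 in the footpad. Fibroblast markers (8 genes) were also lower in the footpad, at 332 to 762 FPKM in sum against 730 to 2121, and none of them was at 0. Adipocyte markers (4 genes, 1079 to 2176 against 65.3 to 141) and skeletal muscle markers (5 genes, 2072 to 5139 against 78.8 to 503) were lower as well. Of 5 keratinocyte markers 3 were at least 2-fold higher in wild-type footpad and 2 in Krt17 knockout footpad. Krt1 was among them in both genotypes (4462 to 9486 FPKM against 147 to 425). In wild type the log2 ratio was 0.25 for Krt5 and -0.65 for Trp63. Sweat gland markers were mixed. Of 6 listed, 4 passed 1 FPKM, with 3 at least 2-fold higher and 1 lower in wild-type footpad. Of all genes, 4.73% were 2-fold higher and 18.5% lower in wild type, and 5.36% and 15.3% in the Krt17 knockout. Aqp5 lay between 101 and 168 FPKM in the footpad and reached 0.649 in back skin. Krt77 lay between 0.414 and 0.915 FPKM in the footpad and between 422 and 703 in back skin. The 6 thus summed to less in the footpad, 135 to 206 FPKM against 430 to 714. In bulk tissue, fewer cells of a type and less RNA per cell cannot be told apart, and the part of cell makeup in the Hox differences was not tested. Krt17 stood between 14.7 and 68.1 FPKM in the columns labelled Krt17 knockout and between 92.6 and 1919 in the others. Trp53, the gene of p53, was still measured in the columns labelled p53 knockout, at 18.0 to 28.8 FPKM against 19.3 to 43.8 in wild-type back skin, and without a described allele its transcript does not check that label. Column totals lay between 854202 and 1095020 FPKM.

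Of the 39 genes, 32 reached 1 FPKM in at least 1 column. In both tissues 22 did so, in back skin alone 6 (Hoxa2, Hoxa4, Hoxb1, Hoxb4, Hoxb5 and Hoxb8), and in the footpad alone 4 (Hoxa11, Hoxa13, Hoxc11 and Hoxd13). The genes that passed in a single tissue passed because they were high there. The remaining 7, among them Hoxb13 and 5 genes of the Hoxd cluster, stayed below 1 FPKM throughout. The highest values were 0.0838 for Hoxd1, 0.635 for Hoxd3, 0.956 for Hoxd10 and 0.238 for Hoxd11. Hoxb13, a gene of the hind end of the embryo and of the prostate, was listed at 0 in all 17 columns, and Hoxd12 reached at most 0.0150 FPKM.

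**Figure D1:**
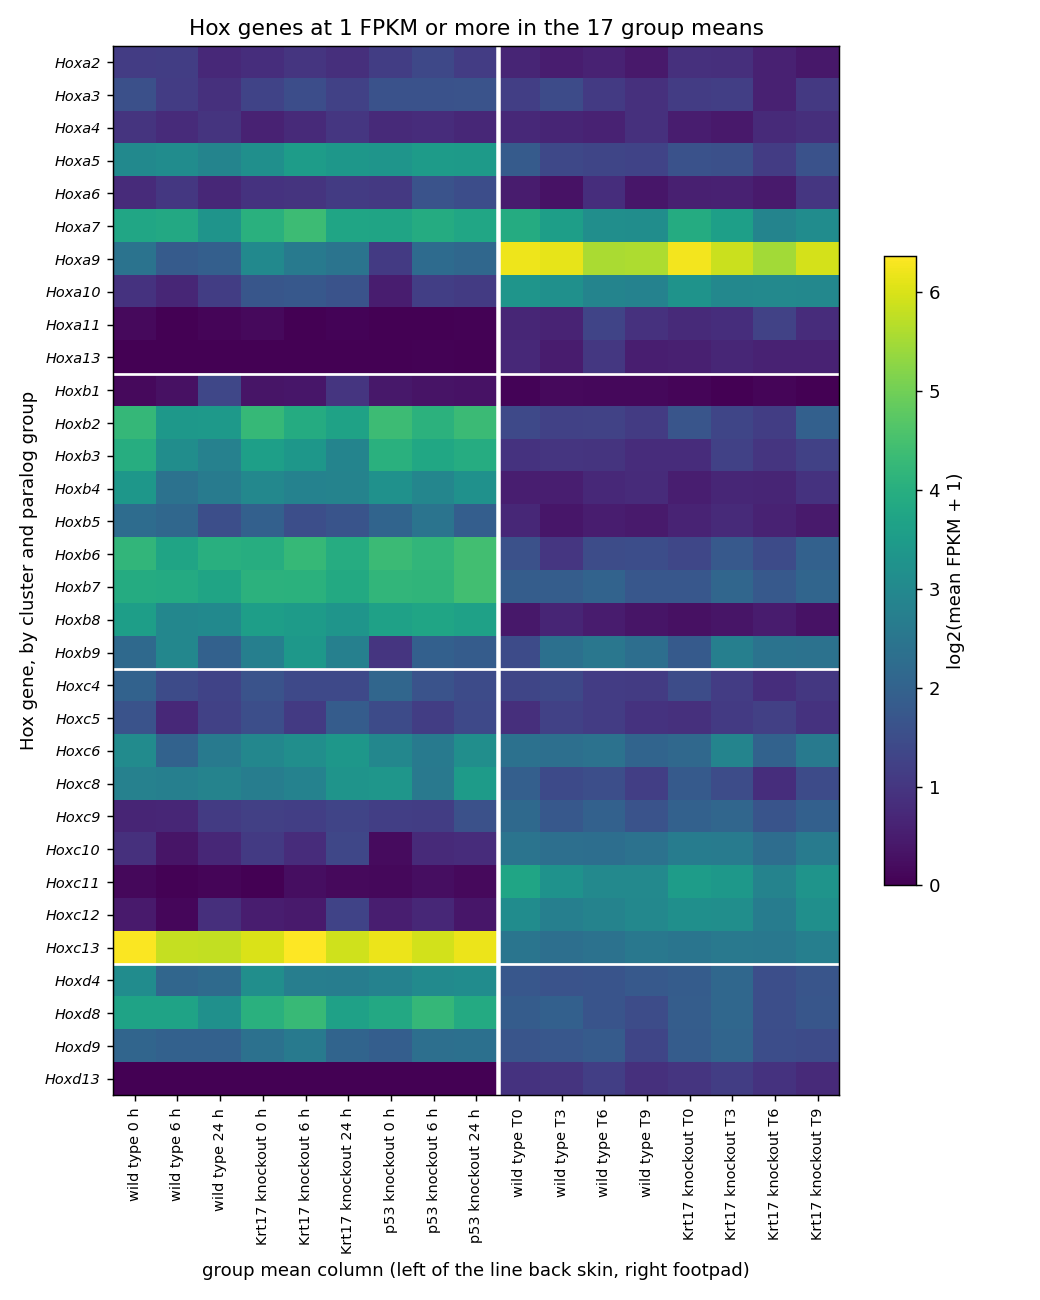
Levels of the 32 Hox genes that reached 1 FPKM, as log2(mean FPKM + 1) by colour, with genes in rows by cluster and paralog group and the 17 group means in columns, back skin left of the thick line and footpad right of it. Hoxc13 is the brightest row in back skin and Hoxa9 in the footpad, and the Hoxb rows from Hoxb2 to Hoxb8 are bright in back skin and dark in the footpad.

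Footpad and back skin differed in the levels of many Hox genes, though 22 of the 32 reached 1 FPKM in both. Hoxa9 to Hoxa13, Hoxc9 to Hoxc12 and Hoxd13, the genes of the limb and tail end of the clusters, were higher in the footpad. Hoxb2 to Hoxb8, with Hoxa5, Hoxc8 and Hoxd8, were higher in back skin, and so was Hoxc13, the hair and nail gene of the family. In 9 genes every footpad column lay above every back skin column, and in 11 every footpad column lay below. Over all 15557 genes at 1 FPKM or more, 7.12% had all footpad columns above and 23.6% all below. The 9 genes were the same when only the unirradiated or only the wild-type columns were used. Those lying below became 19 in the unirradiated columns, with Hoxa3, Hoxa6, Hoxb1, Hoxc4, Hoxc5, Hoxc6, Hoxd4 and Hoxd9 added to the 11. Fewer columns are compared there, and the irradiated ones are left out. The share of all genes under that rule was not counted, so the 19 cannot be set against the 23.6%.

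In unirradiated wild-type skin 6 of the 32 genes were at least 2-fold higher in the footpad, where 4.73% of all genes were, and 11 were lower, where 18.5% of all genes were. In the Krt17 knockout, whose columns are separate, 5 were higher (5.36% of all genes) and 11 lower (15.3%). The 5 are among the 6 of wild type, which has Hoxc9 in addition, and the 11 are the same genes in both. The median of all genes lay at -0.41 (wild type) and -0.29 (Krt17 knockout), and that of the 32 Hox genes lay at -0.56 and -0.44. Rescaling the columns to a common median moved the higher share of all 2-fold genes from 20.4% to 40.7% (wild type) and from 26.0% to 40.4% (Krt17 knockout). Among the Hox genes it gave 7 higher and 10 lower in wild type, and 6 and 11 in the knockout.

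**Figure D2:**
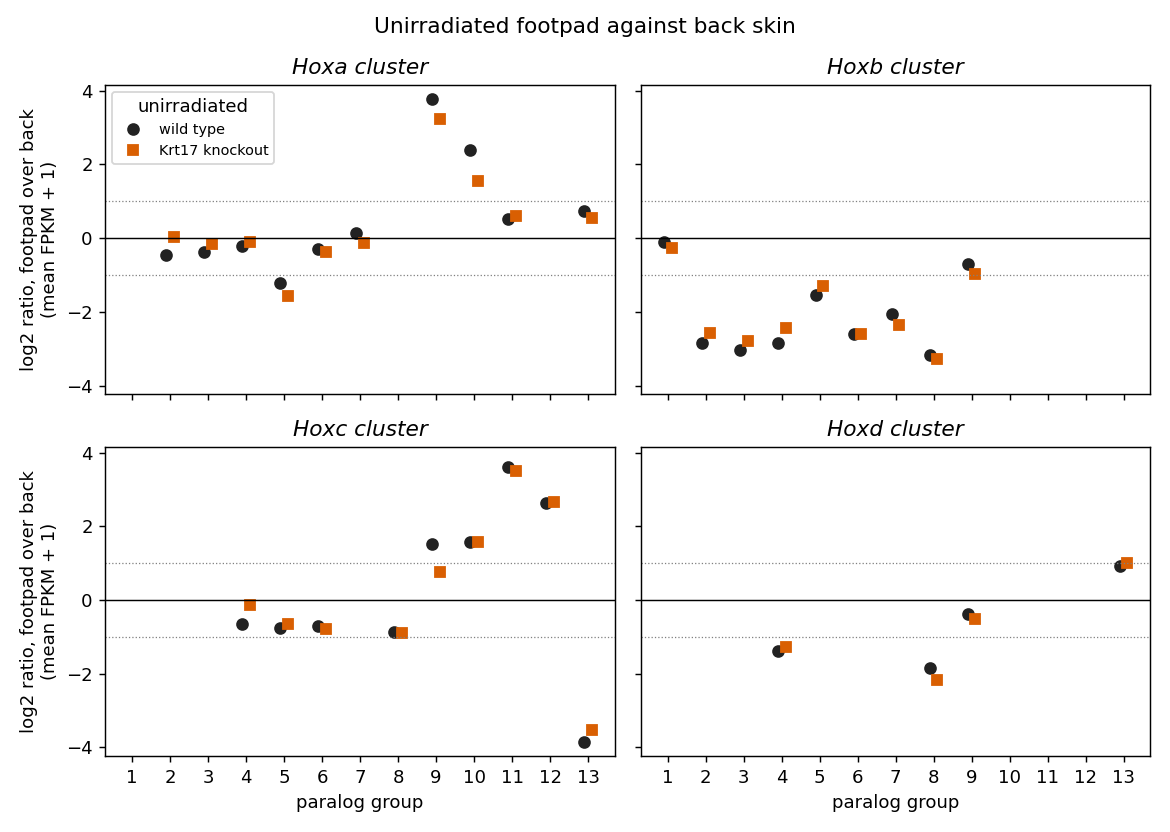
The log2 ratio of unirradiated footpad over back skin (mean FPKM + 1) by paralog group for the 32 Hox genes that reached 1 FPKM, with a panel for each cluster, circles for wild type and squares for the Krt17 knockout, and dotted lines at 2-fold. In wild type the ratios step up from 0.13 at Hoxa7 to 3.78 at Hoxa9 and from -0.87 at Hoxc8 to 1.52 at Hoxc9, and Hoxc13 lies at -3.86 and -3.52.

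Hoxa9, which is known for its role in blood progenitors and in limb and axial patterning, was the highest Hox gene of the footpad (chromosome 6, 52223100 to 52231089, minus strand, GRCm38). Its mean FPKM ran from 43.6 to 75.1 with a median of 58.9 over the 8 footpad columns, and from 1.13 to 7.13 with a median of 3.65 over the 9 back skin columns. The tissues did not overlap, and the log2 ratio in unirradiated skin was 3.78 (wild type) and 3.23 (Krt17 knockout). Hoxa9 alone held 37.6% to 46.9% of all Hox FPKM in the footpad, against 0.466% to 3.04% in back skin.

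Hoxa10, its neighbour, with roles in limb and uterus, ran from 6.04 to 9.02 FPKM in the footpad (median 6.92) and from 0.436 to 2.38 in back skin (median 1.21). Its ratio was 2.39 (wild type) and 1.56 (Krt17 knockout), whose back skin had 2.25 FPKM where wild type had 0.918. Hoxa11, a gene of the lower limb bones, was low throughout, at 0.555 to 1.46 FPKM in the footpad and 0 to 0.123 in back skin. Hoxa13, which with Hoxd13 patterns digits, lay between 0.409 and 1.04 FPKM in the footpad and reached at most 0.0184 in back skin. Hoxd13 lay between 0.679 and 1.28 in the footpad. These 3 genes are near 1 FPKM where they were detected, so their ratios on this scale stayed below 1 (0.51, 0.73 and 0.92 in wild type) although back skin had next to none of them.

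In the Hoxc cluster the footpad genes were Hoxc9 to Hoxc12, 4 neighbours on chromosome 15. Hoxc11, a gene of hindlimb patterning (102954427 to 102957708, plus strand), showed the widest gap of the 4, with 6.19 to 12.3 FPKM in the footpad (median 8.63) against 0.0115 to 0.184 in back skin (median 0.104). Its ratio was 3.60 for wild type and 3.50 for Krt17 knockout skin. Hoxc12, beside it, ran from 5.43 to 8.04 FPKM in the footpad (median 7.20) and from 0.0722 to 1.45 in back skin (median 0.422), with ratios of 2.63 and 2.65. Hoxc10, which specifies hindlimb motor neurons, ran from 3.81 to 5.33 (median 4.40) against 0.145 to 1.54 (median 0.752), with a ratio of 1.58 in both genotypes. Hoxc9 was the smallest difference of the 4, at 2.08 to 3.55 FPKM against 0.588 to 1.97, and its ratio was 1.52 in wild type and 0.77 in the knockout.

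Hoxc13, at the tail end of the same cluster (102921103 to 102928814), went the other way. It is needed for hair shafts and nails and acts on hair keratin genes. Its mean FPKM ran from 54.5 to 81.7 in back skin (median 62.9) and from 4.0 to 5.78 in the footpad (median 4.71). By median it was the highest Hox gene of back skin, with 25.6% to 32.5% of all Hox FPKM there, and the sixth of the footpad, where it was not absent. Of 12 genes of the hair shaft programme, 11 were matched. All 11 were at least 2-fold lower in wild-type footpad, where 18.5% of all genes were, with a median of -7.48. They include Krtap8-1, a keratin-associated protein of the shaft, at -9.32 and Krt31, a keratin of the hair cortex, at -7.90. The 11 genes lay below back skin in every footpad column, where 23.6% of all genes did. A link between Hoxc13 and these genes was not tested.

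**Figure D3:**
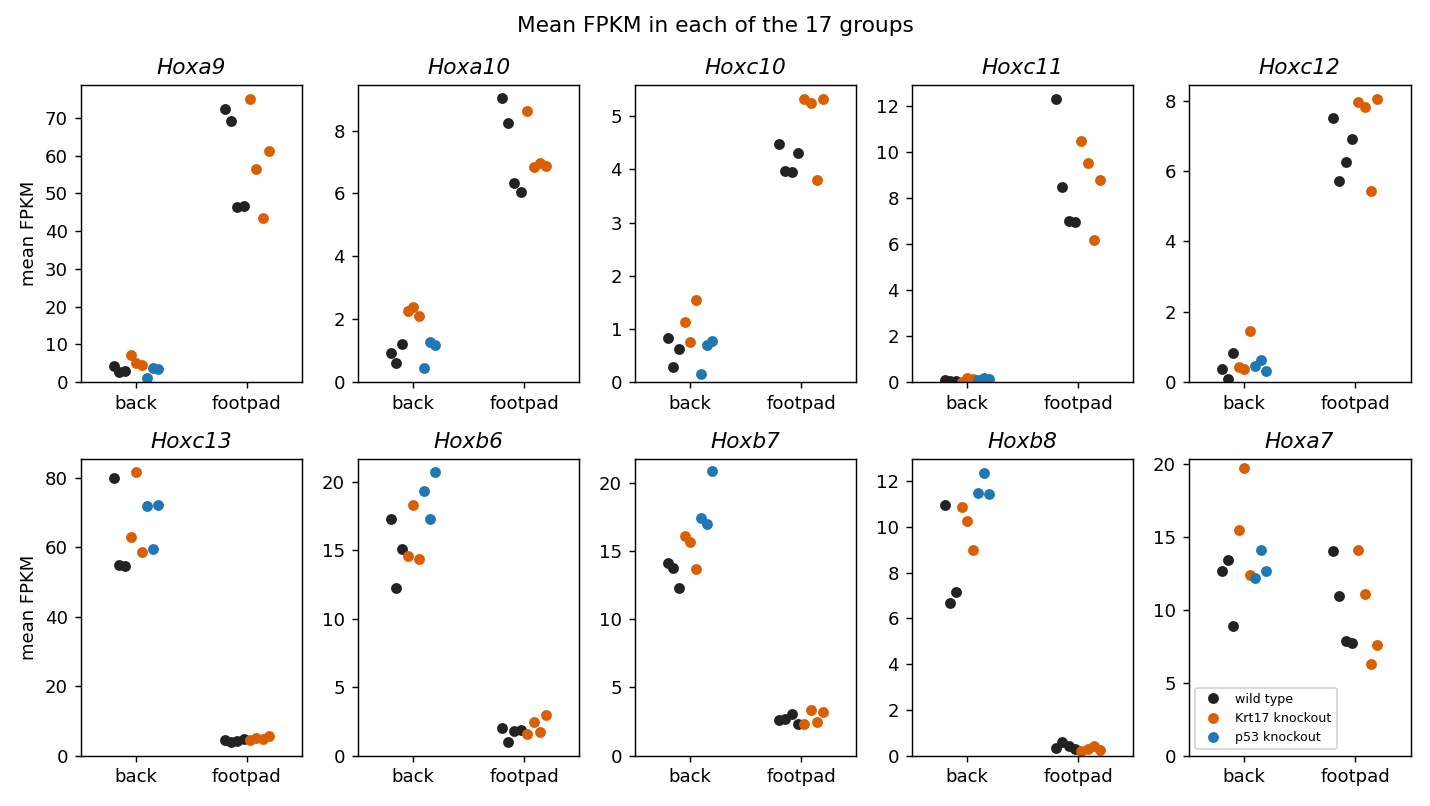
Mean FPKM of 10 Hox genes, with a point for each of the 9 back skin and 8 footpad groups, coloured by genotype, on linear axes that start at 0. Hoxa9, Hoxa10 and Hoxc10 to Hoxc12 are higher in every footpad group, Hoxc13 and Hoxb6 to Hoxb8 in every back skin group, and the groups of Hoxa7 overlap.

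Most of the Hoxb cluster was higher in back skin. Hoxb8, whose loss makes mice groom to excess (chromosome 11, 96281905 to 96285315, plus strand), ran from 6.66 to 12.4 FPKM in back skin (median 10.9) and from 0.219 to 0.580 in the footpad (median 0.306). Its ratios of -3.18 and -3.28 were the lowest of the cluster. Hoxb3, Hoxb4 and Hoxb2, which are best known from hindbrain and blood, followed at -3.04, -2.85 and -2.84 in wild type. Hoxb6 ran from 12.2 to 20.7 FPKM in back skin (median 17.3) and from 1.02 to 2.96 in the footpad (median 1.83). Hoxb7 ran from 12.3 to 20.9 (median 15.7) against 2.29 to 3.32 (median 2.65), and Hoxb5 from 1.87 to 4.50 against 0.316 to 0.680. These 7 genes lie side by side, and none of them overlapped between the tissues. Hoxb1, at the head end of the cluster, was low in both tissues, at 0.113 to 1.55 FPKM in back skin and 0 to 0.121 in the footpad, and Hoxb9, at the other end, overlapped.

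Outside that cluster, Hoxd8 (8.2 to 18.5 FPKM in back skin, 1.77 to 3.35 in the footpad) and Hoxa5 (6.32 to 10.5 against 1.21 to 2.56), a gene of lung and thorax, also did not overlap. Hoxc8, a gene of thoracic pattern, ran from 5.01 to 10.3 FPKM against 0.780 to 2.79, with a ratio of -0.87 in wild type, short of 2-fold. Hoxd4, a neck-level gene, met the 2-fold count at -1.37 and -1.28 but its lowest back skin column, at 3.33 FPKM, was just below its highest footpad column, at 3.39. Hoxd4 and Hoxd3 share 52.3% and 62.3% of their exon bases with other genes of the same strand, each other among them, so reads may have been divided between them.

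Other members had like levels or were low in both tissues. Hoxa7 stood at 8.90 to 19.7 FPKM in back skin and 6.29 to 14.1 in the footpad, with ratios of 0.13 and -0.13, and was the second highest Hox gene of the footpad. Hoxb9 ran from 0.964 to 9.53 FPKM in back skin and from 1.77 to 5.74 in the footpad, Hoxc6 from 3.0 to 9.39 and from 2.99 to 6.38, and Hoxd9 from 2.75 to 5.12 and from 1.51 to 3.19. All 3 were lower in unirradiated footpad, at -0.70, -0.71 and -0.38 in wild type. Hoxa3, Hoxc4 and Hoxc5 lay between 0.512 and 3.33 FPKM and Hoxa2, Hoxa4 and Hoxa6 between 0.232 and 2.12, and each overlapped between the tissues. Hoxd10, a limb gene, was at 0.313 to 0.956 FPKM in the footpad and 0.418 to 0.915 in back skin, so the limb genes of Hoxd were not all higher in the footpad. Hoxd11 lay between 0.0277 and 0.238 in the footpad and reached 0.0685 in back skin.

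Paralogs of groups 7, 9 and 13 differed among themselves, while the 3 of group 8 all lay below back skin. In group 9, Hoxa9 and Hoxc9 were higher in the footpad, while Hoxb9 and Hoxd9 had ratios below 0. In group 13, Hoxa13 and Hoxd13 were higher in the footpad, Hoxc13 was lower and Hoxb13 was listed at 0. In group 7, Hoxb7 was lower and Hoxa7 was not. Of the 20 genes of groups 1 to 8 that passed 1 FPKM, none had all footpad columns above back skin and 10 had them below. Of the 12 in groups 9 to 13, 9 had them above and 1, Hoxc13, below, while Hoxb9 and Hoxd9 overlapped. Over all genes 7.12% had them above and 23.6% below. Hoxa11, Hoxa13, Hoxc11 and Hoxd13 among the 9 passed 1 FPKM through the footpad alone. Hoxb4, Hoxb5 and Hoxb8 among the 10 passed through back skin alone, so these genes entered the counts because they were high there. Within a cluster the turn came between neighbours, from -0.87 at Hoxc8 to 1.52 at Hoxc9, from 0.13 at Hoxa7 to 3.78 at Hoxa9, and from 2.63 at Hoxc12 to -3.86 at Hoxc13.

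Sums of FPKM showed the same turn by cluster. The Hoxb cluster summed to between 62.0 and 101 FPKM in back skin and to between 10.4 and 16.2 in the footpad. The Hoxa cluster summed to between 22.8 and 42.3 in back skin and to between 62.8 and 104 in the footpad, most of it Hoxa9. Hoxa thus held 53.7% to 63.7% of all Hox FPKM in the footpad and 11.7% to 16.3% in back skin. Groups 9 to 13 without Hoxc13 summed to between 7.71 and 25.4 FPKM in back skin and between 78.2 and 118 in the footpad. The Hoxd cluster was the smallest part in the footpad, at 7.14 to 12.4 FPKM.

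Of 15 noncoding genes of the clusters, 11 were matched and 7 passed 1 FPKM. In wild-type footpad 2 of the 7 were at least 2-fold higher and 1 lower, and in the Krt17 knockout 2 were higher and 3 lower, where 4.73% and 18.5% of all genes were in wild type and 5.36% and 15.3% in the knockout. Hoxa11os, on the strand opposite Hoxa11, ran from 2.23 to 5.11 FPKM in the footpad and reached 0.0680 in back skin. Hotair, which lies between Hoxc12 and Hoxc11 and was named in human skin fibroblasts of distal sites, ran from 0.917 to 2.5 FPKM in the footpad and reached 0.0577 in back skin. Hoxb5os, opposite Hoxb5, ran from 8.12 to 20.5 in back skin and reached 0.123 in the footpad. Strand use is not given in the sources used here, and Hoxa11 shares 35.0% of its exon bases with Hoxa11os, Hoxb3 52.9% with Hoxb3os and Hoxb2 27.3%, so sense and antisense reads there may not be separate.

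Transcription factors of limb and body site, from a list of 24 of which 18 passed, gave 5 genes at least 2-fold higher and 6 lower in wild-type footpad, and 5 and 4 in Krt17 knockout footpad. Msx2 and Msx1, of hair matrix and limb bud, were lower at -4.57 and -3.13, Zic1 was lower at -2.05, and En1, which marks the ventral side of the limb and footpad, was higher at 2.17. Chosen after its values were seen, Tbx4, a hindlimb factor, lay between 0.543 and 1.28 FPKM in the footpad and 0.147 and 0.393 in back skin, and the forelimb factor Tbx5 reached 0.107 and 0.0162. Of 11 partner proteins of Hox factors (Pbx, Meis and relatives), none was 2-fold higher in either genotype, and 3 were lower in wild type but 1 in Krt17 knockout skin. Tgif1 was at -1.40 and -0.90 in that order, and the medians were -0.74 and -0.21. Of 17 measured chromatin regulators of Hox clusters, none was higher, and 5 were lower in wild type but 0 in the Krt17 knockout. Bmi1 of the Polycomb repressors was at -1.47 and -0.79, and the medians were -0.75 and -0.34. The medians of all genes were -0.41 and -0.29. Of all genes, 4.73% and 5.36% were 2-fold higher and 18.5% and 15.3% were 2-fold lower.

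Of 14 measured genes of retinoic acid, a signal that sets Hox levels in the embryo, 1 was higher and 4 lower in wild type, against 1 and 3 for Krt17 knockout skin, where 4.73% and 18.5% of all genes were higher and lower in wild type and 5.36% and 15.3% in the knockout. Crabp2, a retinoic acid carrier, was higher at 1.73, and Aldh1a3, which makes retinoic acid, was lower at -3.95. None of 6 caudal and upstream regulators, such as Cdx2, reached 1 FPKM in either tissue. Of the volar skin list, 6 of 8 passed, with 4 higher and 1 lower in both genotypes. The epidermal keratins Krt2, Krt9 and Krt10 were higher at 11.07, 8.98 and 3.68 in wild type.

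After 5 Gy, few Hox genes of back skin stood 2-fold from the unirradiated level. Over the 6 irradiated columns, each against the control of its genotype, 3 ratios were at least 2-fold higher and 2 lower. In wild type at 6 h, Hoxc6 was lower (7.48 to 3.0 FPKM, ratio -1.09), 1 of 28 genes, where 3.21% of all genes were lower. At 24 h Hoxb3 was lower (-1.17), where 3.46% of all genes were, and Hoxb1 was higher (0.113 to 1.55 FPKM, ratio 1.20), where 2.14% were. The Krt17 knockout had none at either time (2.73% and 2.80% of all genes in either direction). In the p53 knockout Hoxa9 was higher at 6 h and 24 h (2.12% and 0.912% of all genes). The medians of the 28 genes in wild type were -0.30 and -0.39 against -0.15 and -0.20 for all genes, and after rescaling no Hox gene was 2-fold lower in any of the 6 and Hoxa9 in the p53 knockout was at 1.08 and 0.99. Rescaling moved the higher share of all 2-fold genes from 35.6% to 53.4% in wild type at 6 h, from 38.2% to 62.7% at 24 h, and from 58.8% to 71.2% in the Krt17 knockout at 24 h.

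Hoxb2, Hoxb3, Hoxb4 and Hoxc4 were lower than their control in all 6 irradiated back skin columns, 4 of 28 genes, and remained so after rescaling, where 7.43% of all genes were lower as deposited and 5.64% after rescaling. None of the 28 was higher in all 6 (3.61% of all genes), and after rescaling Hoxa5 and Hoxa6 were (5.64%). Columns of a genotype share their control here too. At 0, 6 and 24 h Hoxb2 had 17.8, 9.54 and 9.95 FPKM in wild type. The Krt17 knockout had 18.2, 14.2 and 11.6, and the p53 knockout 19.5, 16.1 and 19.4. Hoxb3 stood at 14.8, 7.77 and 5.99, at 11.1, 9.33 and 6.31, and at 15.5, 13 and 14.4 in the same order. For both genes the wild-type ratios were the most negative of the 3 genotypes at each time. Hoxb4 stood at 9.38, 4.24 and 5.25 FPKM in wild type, at 6.82, 6.06 and 6.18 in the Krt17 knockout and at 8.37, 6.64 and 8.30 in the p53 knockout. Hoxd4, chosen after its values were seen, stood at 7.60, 3.33 and 3.59 in wild type, whereas the Krt17 knockout had 7.82, 5.56 and 5.51 and the p53 knockout 6.11, 7.29 and 7.58, so it was lower in wild type and higher in the p53 knockout. In wild type at 24 h the rescaled ratios were -0.56 for Hoxb2, -0.96 for Hoxb3, -0.52 for Hoxb4 and -0.71 for Hoxd4.

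The sum of the fibroblast markers was lower in irradiated wild-type and Krt17 knockout back skin too, but higher in irradiated p53 knockout back skin. Over 0, 6 and 24 h this sum of 8 genes was 2121, 1320 and 730 FPKM in wild type. The Krt17 knockout had 1699, 1196 and 862, and the p53 knockout 1070, 1683 and 1152. Single markers did not all follow the sum. In the p53 knockout at 24 h Col1a1 stood at 146 FPKM against 171 in its control. In wild type at 24 h Pdgfra stood at 8.33 against 6.28. The part of these markers in the Hox values was not tested. Hoxb6, Hoxb7 and Hoxd8, which were also high in back skin, differed less from their controls, with wild-type ratios between -0.50 and -0.01, and Hoxb8 lay between at -0.64 and -0.55. Hoxc13 stood at 80.0, 54.9 and 54.5 FPKM in wild type, at 62.9, 81.7 and 58.7 in the Krt17 knockout, and at 71.8, 59.7 and 72.1 in the p53 knockout, with no common direction, and the hair matrix and shaft markers had wild-type medians of -0.07 and 0.02. Hoxb9 was higher at 6 h in all 3 genotypes, at 3.50 to 6.71 FPKM in wild type, 5.75 to 9.53 in the Krt17 knockout and 0.964 to 2.87 in the p53 knockout, with ratios of 0.78, 0.64 and 0.98.

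After 40 Gy, few Hox genes of the footpad stood 2-fold from their control. Over 6 irradiated columns 1 ratio was 2-fold higher, Hoxb9 in wild type at T6 (2.48% of all genes), and 1 lower, Hoxa7 in the Krt17 knockout at T6 (2.23%), of 26 genes each. None was called in the other 4 columns, in which 3.15% (wild type T3), 4.78% (wild type T9), 3.12% (Krt17 knockout T3) and 4.01% (Krt17 knockout T9) of all genes were past 2-fold in either direction. From T0 through T9 Hoxb9 had 1.77, 4.12, 4.71 and 3.91 FPKM in wild type and 2.47, 5.74, 4.40 and 4.28 in the Krt17 knockout, so all 6 irradiated columns lay above both controls. Hoxa7 stood at 14, 10.9, 7.88 and 7.68 in wild type, and the knockout had 14.1, 11.1, 6.29 and 7.58, so all 6 lay below both controls.

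Hoxa9 and Hoxc11 were lower as well. Hoxa9 stood at 72.3, 69.2, 46.5 and 46.6 FPKM in wild type, and the Krt17 knockout had 75.1, 56.6, 43.6 and 61.2. Hoxc11 stood at 12.3, 8.46, 6.98 and 6.94 in wild type, and the knockout had 10.5, 9.50, 6.19 and 8.80. Every irradiated column was below its control for either gene, and the ratios of Hoxa9 ran from -0.77 to -0.06. In all, 7 of 26 genes were lower in every irradiated footpad column (Hoxa5, Hoxa7, Hoxa9, Hoxa10, Hoxc8, Hoxc10 and Hoxc11), where 9.47% of all genes were, and 2 were higher in every one (Hoxb9 and Hoxc5), where 18.6% of all genes were. After rescaling they were 8 of 25, with Hoxc12 added, where 13.8% of all genes were, and 2. The 3 columns of a genotype share their control, so they are not separate observations. The fibroblast markers of the footpad summed to 365, 332, 762 and 444 FPKM in wild type and to 342, 382, 522 and 347 in the knockout. Both sums were highest at T6, and the part of these markers in the Hox values was not tested.

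**Figure D4:**
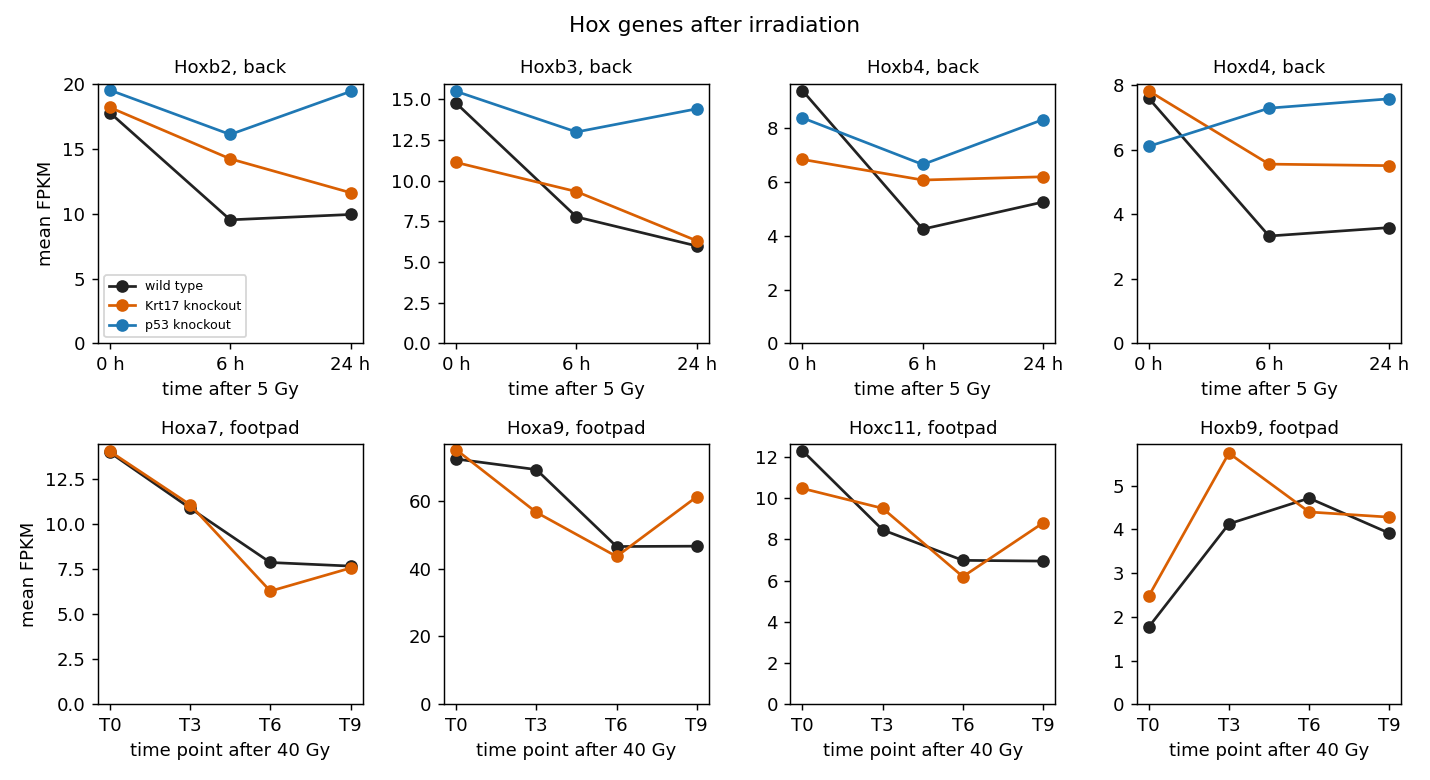
Mean FPKM against time for Hoxb2, Hoxb3, Hoxb4 and Hoxd4 in back skin after 5 Gy (upper row) and for Hoxa7, Hoxa9, Hoxc11 and Hoxb9 in footpad after 40 Gy (lower row), with a line for each genotype and axes that start at 0. The upper genes have their lowest value in irradiated wild type and at 24 h are closest to their control in the p53 knockout, and in the lower row only Hoxb9 lies above its control at every time.

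In each comparison of genotypes at most 2 Hox genes stood 2-fold apart. Unirradiated Krt17 knockout back skin had 0 of 28 genes 2-fold from wild type, where 1.62% of all genes were, and unirradiated footpad 0 of 26, where 1.42% were. Unirradiated p53 knockout back skin had Hoxa9 and Hoxb9 lower (0.639% of all genes). Hoxa9 had 1.13 FPKM there, where wild type had 4.35 and the Krt17 knockout 7.13, and Hoxb9 had 0.964, 3.50 and 5.75 in that order. Hoxa10 (0.436, 0.918 and 2.25) and Hoxc10 (0.145, 0.832 and 1.12) had the same order. Among the genes of groups 9 to 13 that passed in back skin, the p53 knockout control was also the lowest of the 3 controls for Hoxd9. It was not the lowest for Hoxc9, Hoxc12 and Hoxc13. The share of all genes lowest in that control was not counted, so these genes cannot be called many or few. The p53 knockout control is the column against which the Hoxa9 ratios of 1.13 and 1.04 were taken. At 6 h and 24 h Hoxa9 stood at 3.65 and 3.39 FPKM in the p53 knockout, and at 2.54 and 2.81 in wild type.

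At matched times after irradiation, Krt17 knockout back skin had Hoxa10 and Hoxc6 higher than wild type at 6 h (1.32% of all genes) and none at 24 h (2.20% in either direction). The Krt17 knockout had the 3 highest Hoxa10 values of back skin, from 2.11 to 2.38 FPKM, against 0.436 to 1.27 in the other 6 columns. The p53 knockout had none at 6 h (5.20% in either direction), although Hoxb9 was lower at -1.13 after rescaling, and at 24 h Hoxb3 was higher (14.4 against 5.99 FPKM, where 4.24% of all genes were higher) and Hoxb1 lower (1.85%). Hoxb3 was no longer counted after rescaling (0.91), which moved the higher share of all 2-fold genes between p53 knockout and wild type at 6 h from 78.6% to 63.8%, and at 24 h from 69.6% to 46.6%. In the footpad none of 26 genes differed 2-fold between Krt17 knockout and wild type at T3, T6 or T9, where 2.37%, 2.69% and 2.32% of all genes did. The medians of the 28 back skin genes in the Krt17 knockout were 0.44 at 6 h and 0.31 at 24 h, against 0.03 and 0.03 for all genes. For the p53 knockout they were 0.42 and 0.45, against 0.17 and 0.22. Both knockouts share the wild-type column at each time. In the footpad the medians were 0.19, -0.16 and 0.22, against 0.03, -0.03 and 0.08.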

How the data were processed

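The authors deposited FPKM as 1 mean per group in 2 tables, 1 for back skin and 1 for footpad. Alignment and quantification tools are listed as TopHat2 2.1.0 and Cufflinks 2.2.1, with build mm10, per the submitters' processing notes. The annotation, the strand setting and the way samples were averaged are not given in the sources used here, and read depth is unknown, so no interval or detection limit is given. Columns were matched to groups by their names.

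Ratios were log2 of (mean FPKM + 1), with genes kept at 1 FPKM or more in at least 1 column of the tissue or tissues compared, and counted at 2-fold or more. Of the comparisons, 2 set footpad against back skin, 12 irradiated against unirradiated groups and 10 knockout against wild type. A gene listed at 0 with a median of 5 FPKM or more in the other columns of its tissue was treated as missing, which touched no Hox gene. limma, kept in reserve for single samples, was not used, as the tables hold means. Rescaling divided each column by its median ratio to the geometric mean column, over genes at 1 FPKM or more in every column. Positions and exon overlaps came from GENCODE M21 (GRCm38, the assembly of mm10), which holds all 39 identifiers. Hox genes are named, except for an item that is not reported here, and from other lists at most the 4 largest differences in unirradiated wild type, apart from genes said to be chosen later and markers named beside a sum. The members and lists were chosen with earlier results of these data known. Counting was checked on simulated data. Python 3.11.15, numpy 2.4.6, pandas 2.3.3 and matplotlib 3.10.9 were used.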

Additional observations from a re-analysis of the deposited data

Results flagged for a closer look

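In back skin, 2 Hox genes had responses of opposite sign in the p53 knockout and in wild type at both times, at least 2-fold apart. This difference was not tested, as single samples are not in the tables used here. The share of all genes that meet the same rule was not counted, so 2 genes cannot be called many or few. For Hoxa9 the p53 knockout response minus the wild-type response was 1.72 at 6 h and 1.53 at 24 h on the log2 scale, with ratios of 1.13 and 1.04 in the knockout and -0.60 and -0.49 in wild type. The p53 knockout control had the lowest Hoxa9 value of the 9 back skin columns. For Hoxd4 the difference was 1.21 at 6 h and 1.18 at 24 h, with ratios of 0.22 and 0.27 in the knockout and -0.99 and -0.91 in wild type. After rescaling the Hoxa9 differences were 1.55 and 1.29 and those of Hoxd4 1.04 and 0.93, so Hoxd4 was no longer 2-fold apart at 24 h.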

How the results depend on the processing

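No paired analysis was possible because the tables hold 1 mean per group, and for the same reason no replicate could be left out. With a pseudocount of 0.1 FPKM, Hox genes higher in Krt17 knockout footpad numbered 9 instead of 5, and the wild-type count of 6 rose as well. The irradiation ratios past 2-fold became 11 higher and 10 lower in back skin (3 and 2 before) and 5 and 5 in the footpad (1 and 1), and the genotype ratios 15 and 6 in back skin (3 and 3) and 3 and 1 in the footpad (0 and 0), so these counts rest on genes with low FPKM. Rescaled columns left 0 irradiation ratios lower in back skin. A filter of 5 FPKM left 5 Hox genes with all footpad columns above back skin, without Hoxa11, Hoxa13, Hoxc9 and Hoxd13, which stay under 5 FPKM. With unirradiated columns alone, 19 instead of 11 lay below, a rule for which the share of all genes was not counted. No filter, kept zeros, wild-type columns alone and leaving out the p53 knockout columns moved no count by more than 1.5 times. Against the mean of the 3 unirradiated back skin columns, a control chosen after seeing the data, Hoxc6 was no longer counted at 6 h in wild type (-0.99) and Hoxb3 (-1.08) and Hoxb1 (1.04) still were at 24 h. No sign reversed among the genes and sums counted under any of these settings.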
